A study of Danio rerio with 6 samples.

Results

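The embryonic globin genes and 3 further genes of red cells were described in whole zebrafish embryos given a morpholino against splicing of glut12, beside controls. The genes were taken by symbol: hbz, hbbe2, hbbe3, hbae1, hbae3, alas2, slc4a1a and si:dkey-25o16.2, together with any other row whose symbol begins with hbae or hbbe. This gave 11 gene rows of the 31452 in the files, 8 of them globins. Of these, 2 rows carry the symbol hbae1 and 2 the symbol hbbe1.1. The set was drawn up with the difference between the groups in these same libraries already known, so the members' values and fold changes are a description and carry no test.

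RNA was sequenced from 6 pools of 10 whole embryos each, collected 4 days post fertilization. Embryos of the 3 control pools had received a control morpholino and embryos of the 3 morphant pools a morpholino directed against splicing of glut12. Morpholinos are antisense oligomers that bind RNA by base pairing. The gene glut12, listed as slc2a12, encodes a sugar transporter. Strain and the degree of splice block are not stated in the labels, and a morpholino acts transiently and need not lower the read count of its target. Whether pools came from separate clutches is not stated either, and p-values then measure only the spread between pools, which may be technical.

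Hemoglobin is built from alpha-type and beta-type globin chains, each holding a heme with its iron. Zebrafish embryos make their early hemoglobin in primitive red cells from embryonic globin genes, which later give way to adult globin genes. The genes stand interleaved, alpha-type beside beta-type, in a large cluster on chromosome 3 and a smaller one on chromosome 12. Red cell precursors also need alas2, which carries out the entry step of heme synthesis in these cells, and slc4a1a, the band 3 anion exchanger of the red cell membrane.

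Values are read counts per gene that the authors normalised for library size and rounded, here called normalised read counts. They are not corrected for transcript length, so levels are compared between libraries and not between genes. Library totals lay between 11065259 and 11762915 in control pools and between 10397713 and 10744090 in morphant pools. Every morphant total was thus below every control total. The estimated depth lay between 7550000 reads in control 1 and 15170000 in morphant 1. Over all genes control 1 was the library least like its group, with log2 values correlated at r = 0.961 and 0.955 with controls 2 and 3, against 0.987 between those (across 15942 genes, which are not independent). Among the morphants, morphant 1 stood apart by less, at r = 0.981 and 0.978 with morphants 2 and 3, against 0.992 between those. The targeted gene slc2a12 had normalised read counts of 160, 145 and 143 in controls 1, 2 and 3 and of 98, 97 and 90 in morphants 1, 2 and 3, a log2 fold change of -0.65 ± 0.13 (SE, n = 3 per group; limma adjusted p = 0.158).

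The globin values of the morphants were spread widely. Summed over the 8 globin rows, normalised read counts were 32031, 32320 and 26323 in controls 1, 2 and 3. In morphants 1, 2 and 3 they were 29708, 20311 and 19283. Morphant 1 thus lay inside the range of the controls, whereas morphants 2 and 3 lay below all of them. As a share of all counts of a library, the globin rows made up 0.272%, 0.282% and 0.238% in control pools and 0.277%, 0.195% and 0.183% in morphant pools. In whole embryos, fewer red cells and less globin RNA per red cell cannot be told apart.

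**Figure D1:**
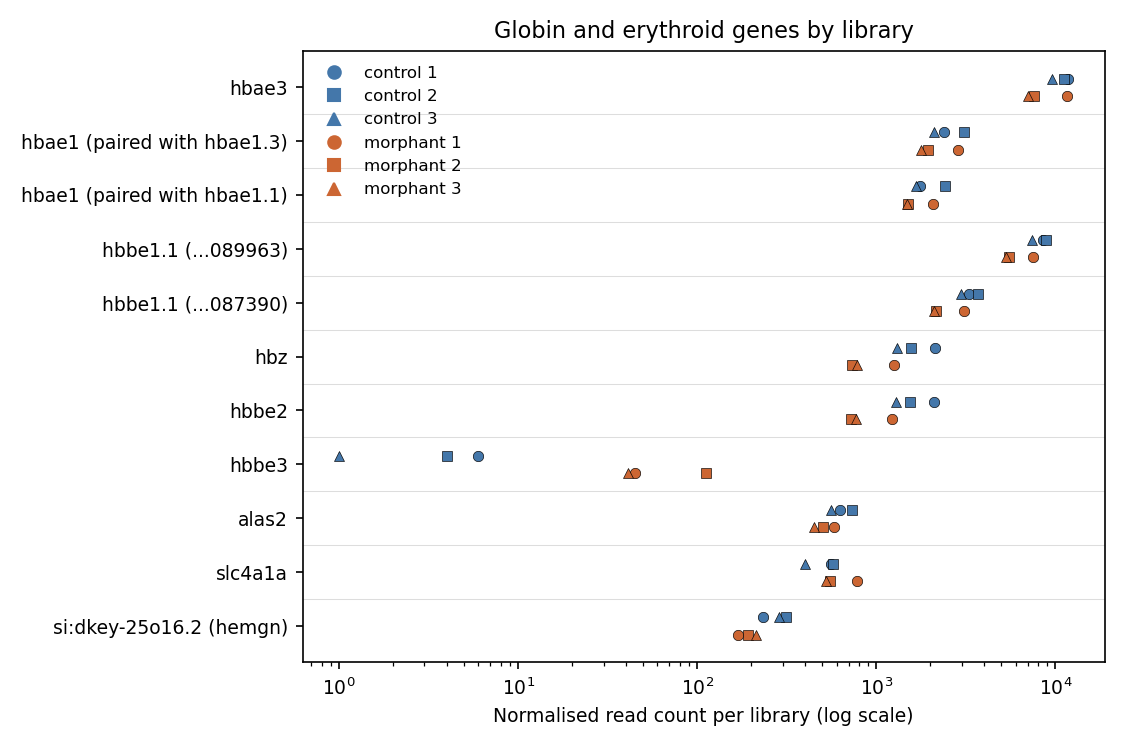
Normalised read count of each of the 11 rows in each library, on a log axis, with controls in blue above and morphants in orange below in each band. Control and morphant points are apart for hbz, hbbe2, hbbe3 and si:dkey-25o16.2, and morphant 1 lies near the controls for the chromosome 3 globins.

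Among the alpha-type globins of chromosome 3 (Zv9), hbae3 (ENSDARG00000079305) had normalised read counts of 11807, 11169 and 9574 in control pools and of 11626, 7621 and 7058 in morphant pools. The groups overlapped through morphant 1, whose value was close to that of control 1. The log2 fold change of hbae3, morphant minus control, was -0.34 ± 0.18 (SE, n = 3 per group), with -0.56 without morphant 1 and -0.20 without morphant 3. The 2 hbae1 rows had the same shape. The row paired with hbae1.3 in the current gene table (ENSDARG00000089124) had normalised read counts of 2392, 3075 and 2098 in control pools and 2844, 1941 and 1769 in morphant pools, and the row paired with hbae1.1 (ENSDARG00000089475) had 1750, 2406 and 1660 and then 2068, 1494 and 1477. In both rows morphant 1 exceeded 2 of the 3 controls, and morphants 2 and 3 lay below every control. Their log2 fold changes were -0.22 ± 0.20 and -0.20 ± 0.17 (SE), and -0.43 and -0.36 without morphant 1. Without control 2 they were -0.07 and -0.04, and without morphant 3 they were -0.08 and -0.12, so these differences rest on single libraries.

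The beta-type globins of chromosome 3 are represented by the 2 hbbe1.1 rows. The row ENSDARG00000089963 had normalised read counts of 8561, 8876 and 7433 in control pools and of 7541, 5537 and 5286 in morphant pools. For ENSDARG00000087390 the controls stood at 3295, 3685 and 2977 and the morphants at 3102, 2152 and 2101. Again only morphant 1 reached into the control range, in each case above control 3. The log2 fold changes were -0.45 ± 0.14 and -0.46 ± 0.16 (SE), with a range of -0.61 to -0.36 and of -0.64 to -0.36 when 1 library was left out.

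The globins of chromosome 12 had larger differences. The alpha-type gene hbz (ENSDARG00000045142, paired with hbae5 in the current gene table) had normalised read counts of 2114, 1564 and 1297 in control pools and of 1258, 733 and 781 in morphant pools. Its neighbour, the beta-type gene hbbe2 (ENSDARG00000045143), had 2106, 1541 and 1283 in control pools and 1224, 721 and 770 in morphant pools. All 3 morphants lay below all 3 controls for both, with morphant 1 just under control 3 and morphants 2 and 3 well under it. Group means were 1658.3 ± 416.6 and 924 ± 290.2 (SD, n = 3 per group) for hbz, a ratio of 0.557. The log2 fold changes were -0.86 ± 0.23 for hbz and -0.87 ± 0.23 for hbbe2 (SE), and without control 1, which had the highest values, -0.67 and -0.68. Without morphant 1 they were -1.1 and -1.11.

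The rows hbz and hbbe2 may not be separate measurements. Their values differed by 8, 23 and 14 in control pools and by 34, 12 and 11 in morphant pools, with hbz above hbbe2 each time, which is between 0.38% and 2.78% of hbbe2. Independent counts of that size would differ by a counting SD of 32.4 to 81.1, and the largest observed difference was 0.81 of that SD. Independent counts of equally expressed genes often differ by less than that SD too, so this does not show that reads were shared. Among 114 pairs of rows with consecutive gene IDs on 1 chromosome and a mean of at least 500 in each row, 2 pairs had all 6 values within 3% of each other, of which this is 1. The limit of 3% lies just above this pair's own largest difference of 2.78%, so its place among the 2 was given. Whether the same reads were counted for both rows is not stated in the sources used here.

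Genes of one family on chromosome 3 were further apart. The hbae1 row paired with hbae1.3 exceeded the other hbae1 row by 1.2- to 1.38-fold over the 6 libraries, and the hbbe1.1 row ENSDARG00000089963 exceeded the other hbbe1.1 row by 2.41- to 2.60-fold. A further row without a symbol in the files, ENSDARG00000088330, is paired with hbae1.2 in the current gene table and is not a member by the symbol rule. It had normalised read counts of 2488, 3212 and 2266 in control pools and 2637, 2093 and 1851 in morphant pools, within 0.927 to 1.08 of the hbae1 row paired with hbae1.3. Sequence identity between these copies was not computed here, and single values within a family are uncertain to the degree that reads could be shared.

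The beta-type gene hbbe3 (ENSDARG00000038147, chromosome 12) was low in controls and higher in every morphant. Its normalised read counts were 6, 4 and 1 in control pools and 45, 112 and 41 in morphant pools. Every morphant lay far above every control, with morphant 2 the highest. The group means were 3.667 ± 2.52 and 66 ± 39.9 (SD, n = 3 per group). The log2 fold change was 3.87 ± 0.55 (SE), and 3.35 to 4.25 with 1 library left out. Its size depends on the number added to each value before the logarithm. With 10 in place of 1 it was 2.37, and with 0.1 it was 4.29. Divided by the estimated worth of 1 read in each library, these values stand for about 4, 4 and 1 reads in control pools and 64, 155 and 37 reads in morphant pools. In the current gene table (assembly GRCz12tu) hbbe3 stands next to hbae4, an alpha-type gene listed as HBQ1 in the files, which had normalised read counts of 11, 22 and 6 in control pools and 33, 18 and 9 in morphant pools. These HBQ1 values overlapped between the groups. The morphants' hbbe3 values amounted to 0.151%, 0.551% and 0.213% of their globin sum, so hbbe3 hardly touches the total.

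**Figure D2:**
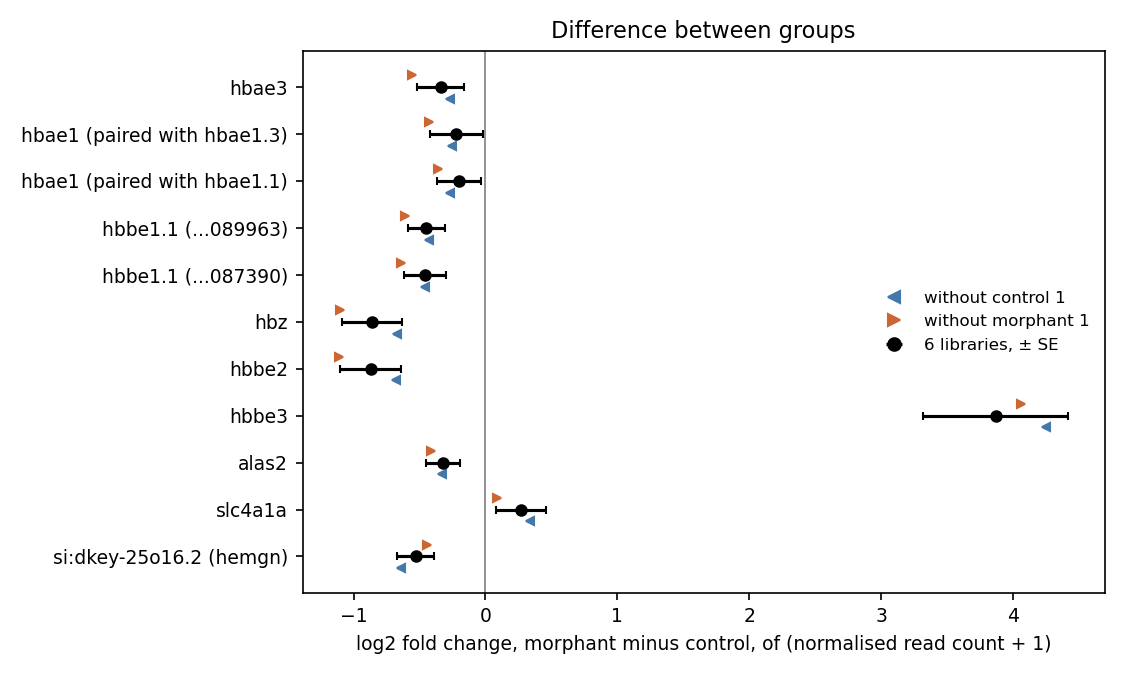
Log2 fold change (morphant minus control) of normalised read count + 1 for each row, with its SE over 6 libraries (black) and the value without control 1 (blue) or without morphant 1 (orange). All globins except hbbe3 lie below 0, hbz and hbbe2 at -0.86 and -0.87, and hbbe3 stands at 3.87.

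The 3 members that are not globins did not share 1 pattern. The heme synthesis gene alas2 (ENSDARG00000038643, chromosome 8) had normalised read counts of 629, 733 and 556 in control pools and of 577, 507 and 450 in morphant pools. Only morphant 1 lay inside the control range, as for the chromosome 3 globins. The log2 fold change of alas2 was -0.32 ± 0.13 (SE), and -0.42 to -0.22 with 1 library left out. The gene si:dkey-25o16.2 (ENSDARG00000096667, chromosome 1) is paired in the current gene table with hemgn, hemogen, a nuclear protein of erythroid cells. It had 234, 313 and 285 in control pools and 170, 192 and 213 in morphant pools. Here all morphants lay below all controls, and morphant 1 was the lowest library, unlike in the globins. Its log2 fold change was -0.53 ± 0.14 (SE), with -0.64 without control 1 and -0.44 without morphant 1. The membrane exchanger gene slc4a1a (ENSDARG00000012881, chromosome 3) had 561, 574 and 402 in control pools and 782, 551 and 527 in morphant pools. Its groups overlapped, morphant 1 was the highest library, and the log2 fold change was 0.27 ± 0.19 (SE), with 0.09 without morphant 1, 0.10 without control 3 and 0.38 without morphant 3.

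Over the 11 rows, 9 had a negative log2 fold change, and the median was -0.34 beside 0 for all 26082 genes tested. All 11 passed the filter on low values. By limma 0 of the 11 rows passed an adjusted p of 0.05, where 0.023% of all genes tested were higher and 0% lower by that rule. The adjusted p lay between 0.115 for hbbe3 and 0.609 for an hbae1 row. At an unadjusted p of 0.05, 1 row was higher and 6 were lower, beside 8.99% and 6.93% of all genes tested. The groups did not overlap for 1 higher row (hbbe3) and 3 lower rows (hbz, hbbe2 and si:dkey-25o16.2), beside 11.6% and 10.2% of all genes. Nothing is read from these counts, since the rows were chosen on this contrast and several share a cluster and possibly reads. With library weights estimated by limma, 4 rows passed, beside 1.26% of all genes tested in either direction. These were hbbe3, hbz, hbbe2 and si:dkey-25o16.2 (limma adjusted p = 0.0156, 0.0488, 0.0481 and 0.0488). Nothing is read from this count or these p-values either. The choice of rows was made on this contrast, and hbz and hbbe2 may not be separate measurements.

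Ratios within a library do not depend on how libraries are scaled and were compared next. If the same reads were counted for hbz and hbbe2, any sum that holds both, the globin sum included, counts those reads more than once. The sum of hbz and hbbe2 over the sum of the 5 chromosome 3 globin rows was 0.152, 0.106 and 0.109 in control pools and 0.0913, 0.0776 and 0.0877 in morphant pools. The morphants, morphant 1 included, all lay below the controls in this ratio, although morphant 1 had control-like levels of the chromosome 3 genes. Control 1 was the highest, and it was also the library least like its group over all genes. Within chromosome 3, the alpha-type rows over the beta-type rows gave ratios of 1.35, 1.33 and 1.28 in control pools and 1.55, 1.44 and 1.39 in morphant pools. With the row paired with hbae1.2 counted among the alpha-type genes, these ratios were 1.56, 1.58 and 1.5 in control pools and 1.8, 1.71 and 1.65 in morphant pools. In both forms every morphant exceeded every control.

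Relative to globin, slc4a1a was separated between the groups where its own level was not. Its normalised read count was 1.75%, 1.78% and 1.53% of the globin sum in control pools and 2.63%, 2.71% and 2.73% in morphant pools, a ratio of group means of 1.59. The spread among the morphants was small on this measure, 2.69 ± 0.0529% (SD, n = 3), against 1.687 ± 0.137% in control pools. In morphants 2 and 3 slc4a1a itself, at 551 and 527, lay inside the control range of 402 to 574. Their globin sums, 20311 and 19283, which are the divisor, lay below all controls. What lies behind their high shares was not tested. In morphant 1 slc4a1a, at 782, was above all controls, with a globin sum inside their range. Over alas2, slc4a1a stood at 0.892, 0.783 and 0.723 in control pools and 1.36, 1.09 and 1.17 in morphant pools, again with no overlap. For alas2 itself the share of the globin sum was 1.96%, 2.27% and 2.11% in control pools and 1.94%, 2.50% and 2.33% in morphant pools, which overlapped. For si:dkey-25o16.2 it was 0.731%, 0.968% and 1.08% in control pools and 0.572%, 0.945% and 1.1% in morphant pools, which also overlapped. These ratios were chosen after the values were seen and carry no test.

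**Figure D3:**
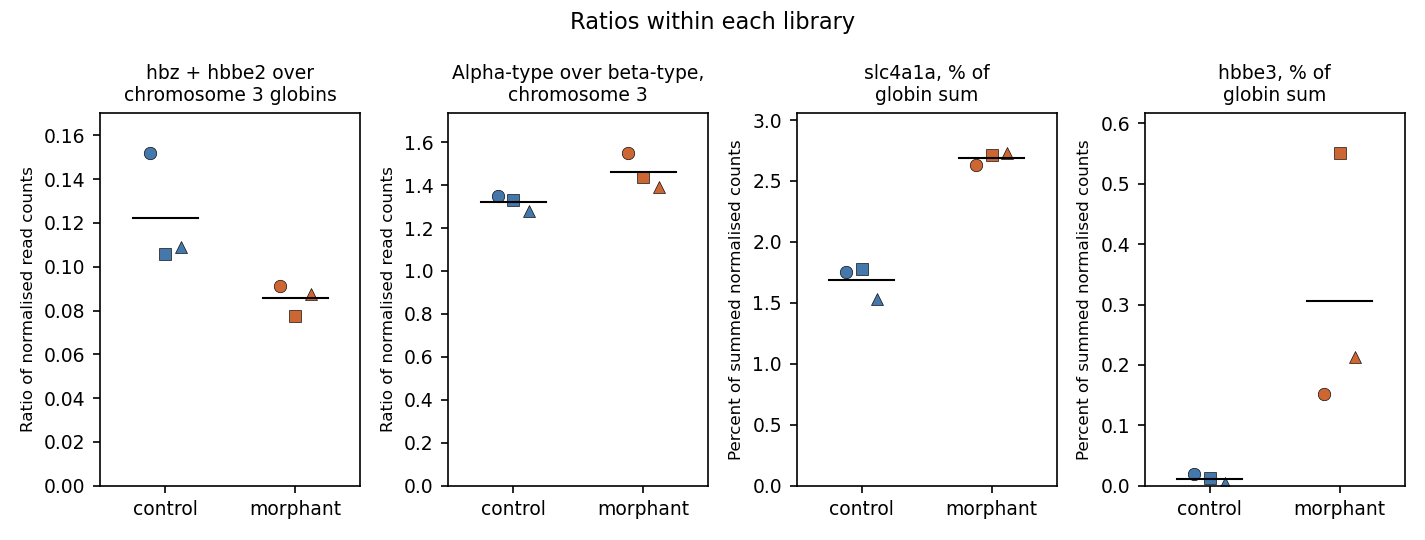
Ratios of normalised read counts within each library, each point a library and each line a group mean: hbz plus hbbe2 over the chromosome 3 globins, alpha-type over beta-type globins of chromosome 3, and slc4a1a and hbbe3 as a percentage of the globin sum. The groups are apart in all 4 panels, with slc4a1a at 1.53% to 1.78% in controls and 2.63% to 2.73% in morphants. These ratios were chosen after the values were seen. The shares of alas2 and si:dkey-25o16.2, in which the groups overlapped, are not drawn.

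Adult globin genes were low in all libraries. The row listed as hbaa1, an adult alpha-type symbol, had normalised read counts of 132, 35 and 17 in control pools and 21, 29 and 53 in morphant pools. The adult beta-type row ba1 had 114, 26 and 21 in control pools and 18, 30 and 44 in morphant pools. Control 1 was far above the other libraries for both. Their log2 fold changes were -0.42 ± 0.67 and -0.46 ± 0.61 (SE; limma adjusted p = 0.789 and 0.748), and without control 1 they were 0.37 and 0.29. The current gene table pairs these IDs with si:ch211-5k11.8 and HBE1, so the adult names rest on the files' symbols. The same holds for embryonic beta-type rows. The members hbbe2 and hbbe1.1 (ENSDARG00000087390) are also paired with HBE1, and hbbe1.1 (ENSDARG00000089963) is paired with no symbol. The row paired with hbaa2 is listed at 0 in all 6 libraries, and only these 3 of the 10 adult symbols sought were found.

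Other genes of red cells did not pass the test. In 7 lists that cover adult globins, heme synthesis, iron, erythroid transcription factors, the red cell membrane, red cell enzymes and erythropoietin signalling, 83 tested genes were not members. By limma 0 of these were called, with a smallest adjusted p of 0.127, and at an unadjusted p of 0.05 there were 9 higher and 6 lower genes. The median log2 fold change was 0.00, the same as over all genes tested, with 42 positive and 41 negative. The groups did not overlap for 9 higher and 8 lower genes. Over all genes tested the shares were 8.99% higher and 6.93% lower at an unadjusted p of 0.05, and 11.6% and 10.2% without overlap, so these counts are near the background.

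Heme synthesis apart from alas2 had a median log2 fold change of 0.10 over 9 genes, with 0 called. The porphyrin pathway genes urod (118, 118 and 81 in control pools and 146, 104 and 144 in morphant pools) and ppox (90, 92 and 72, then 91, 112 and 132) had log2 fold changes of 0.32 ± 0.21 and 0.39 ± 0.19 (SE). The gene fech, whose product inserts iron into the porphyrin, had 20, 27 and 17 in control pools and 27, 26 and 34 in morphant pools, with 0.44 ± 0.27 (SE). The limma adjusted p-values of these 3 genes were 0.48, 0.349 and 0.451. The groups overlapped in each.

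Of 26 genes of iron and heme handling, 0 were called and the median was 0.03. Transferrin, tfa, the iron carrier of blood plasma made by the liver, had normalised read counts of 13742, 12805 and 12251 in control pools and 9169, 8032 and 9301 in morphant pools. All morphants lay well below all controls, with a log2 fold change of -0.55 ± 0.09 (SE; limma adjusted p = 0.127). With library weights tfa was called at an adjusted p of 0.0287. The transferrin receptor gene tfr1a, which serves iron uptake in zebrafish red cell precursors, had 9, 50 and 62 in control pools and 90, 132 and 126 in morphant pools (log2 fold change 1.86 ± 0.62, SE; limma adjusted p = 0.235). The iron-responsive aconitase gene aco1 had 23, 131 and 187 in control pools and 244, 279 and 290 in morphant pools (1.69 ± 0.65, SE; limma adjusted p = 0.277). In both tfr1a and aco1 control 1 was far below the other controls, and without it the log2 fold changes were 1.03 and 0.78. The mitochondrial glycine carrier gene slc25a38a, which feeds heme synthesis, had 22, 27 and 27 in control pools and 85, 48 and 33 in morphant pools (1.00 ± 0.34, SE, and 0.64 without morphant 1; limma adjusted p = 0.245). No group overlap was seen for these 4 genes, but they were named for having the lowest p-values of the list. Over the 26 genes the groups did not overlap for 4 higher and 3 lower genes. Over all genes tested these shares were 11.6% and 10.2%. Related genes, named after their values were seen, did not share these differences. The gene slc25a38b had 335, 307 and 330 in control pools and 291, 313 and 252 in morphant pools (log2 fold change -0.19 ± 0.11, SE). The tfr1b rows had log2 fold changes of 0.02 ± 0.12 and 0.2 ± 0.14 (SE). In slc25a38b and in the tfr1b rows the groups overlapped.

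The erythroid transcription factors showed no called gene among 18, with a median of -0.08. The 4 with the lowest p were the corepressor gene cbfa2t3 (17, 88 and 109 in control pools and 160, 189 and 177 in morphant pools), zbtb7a (206, 213 and 236, then 246, 275 and 262), gfi1b (28, 18 and 25, then 16, 20 and 11) and lmo2 (81, 86 and 102, then 81, 53 and 77). Their limma adjusted p-values were 0.259, 0.305, 0.404 and 0.417. Control 1 was again far below the other controls for cbfa2t3, whose log2 fold change was 1.65 ± 0.59 (SE) and 0.83 without it. Chosen after their values were seen, the erythroid master regulators gata1a, tal1 and klf1 (listed as klfd) showed overlapping groups. The values of gata1a were 23, 47 and 32 in control pools and 39, 27 and 31 in morphant pools, those of tal1 224, 307 and 241 and then 259, 222 and 236, and those of klf1 34, 26 and 22 and then 28, 30 and 19.

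Red cell membrane genes other than slc4a1a had a median of -0.06 over 11 genes. The list of red cell enzymes also held the member hemgn, a nuclear protein. Without hemgn its median was -0.15 over 9 genes, and 0 were called in either list. The beta spectrin gene sptb, of the membrane skeleton, had 408, 638 and 708 in control pools and 790, 848 and 785 in morphant pools (log2 fold change 0.50 ± 0.19, SE, and 0.26 without control 1; limma adjusted p = 0.267). The water channel gene aqp1a.1 had 966, 863 and 787 in control pools and 789, 733 and 700 in morphant pools (-0.23 ± 0.10, SE; limma adjusted p = 0.312). The glutathione peroxidase gene gpx1a stood at 759, 648 and 659 in control pools and at 472, 480 and 570 in morphant pools (-0.44 ± 0.11, SE; limma adjusted p = 0.191). The red cell carbonic anhydrase gene cahz had 1008, 1050 and 932 in control pools and 926, 909 and 877 in morphant pools (-0.14 ± 0.08, SE; limma adjusted p = 0.427). As a share of the globin sum, cahz was at 3.15%, 3.25% and 3.54% in control pools and 3.12%, 4.48% and 4.55% in morphant pools. Every morphant lay below every control for cahz itself, with a ratio of group means of 0.907, beside 0.764 for the globin sum. The 2 libraries with the high shares were those with the lowest globin sum, which is the divisor. What lies behind these shares was not tested.

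Of 8 rows of erythropoietin signalling 0 were called, with a median of 0.19. The hormone gene epoa, listed as epo and named after its values were seen, had 53, 65 and 59 in control pools and 79, 58 and 73 in morphant pools. The signal transducer gene stat5.1 had 31, 28 and 36 in control pools and 62, 86 and 100 in morphant pools, and stat5.2 had 59, 91 and 94 and then 124, 158 and 139. All morphants exceeded all controls in both stat5 genes, whose log2 fold changes were 1.34 ± 0.23 and 0.80 ± 0.21 (SE; limma adjusted p = 0.127 and 0.197). With library weights stat5.1 was called at an adjusted p of 0.0287. The kinase gene jak2a had 489, 432 and 406 in control pools and 372, 338 and 328 in morphant pools (-0.35 ± 0.11, SE; limma adjusted p = 0.217). The related gene jak2b, named after its values were seen, had 363, 430 and 389 in control pools. In morphant pools jak2b had 486, 437 and 388, which overlapped (0.15 ± 0.12, SE). The receptor gene epor has 2 rows. In the row with more reads it had 22, 18 and 10 in control pools and 11, 19 and 20 in morphant pools, and in the other no library exceeded 2.

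**Figure D4:**
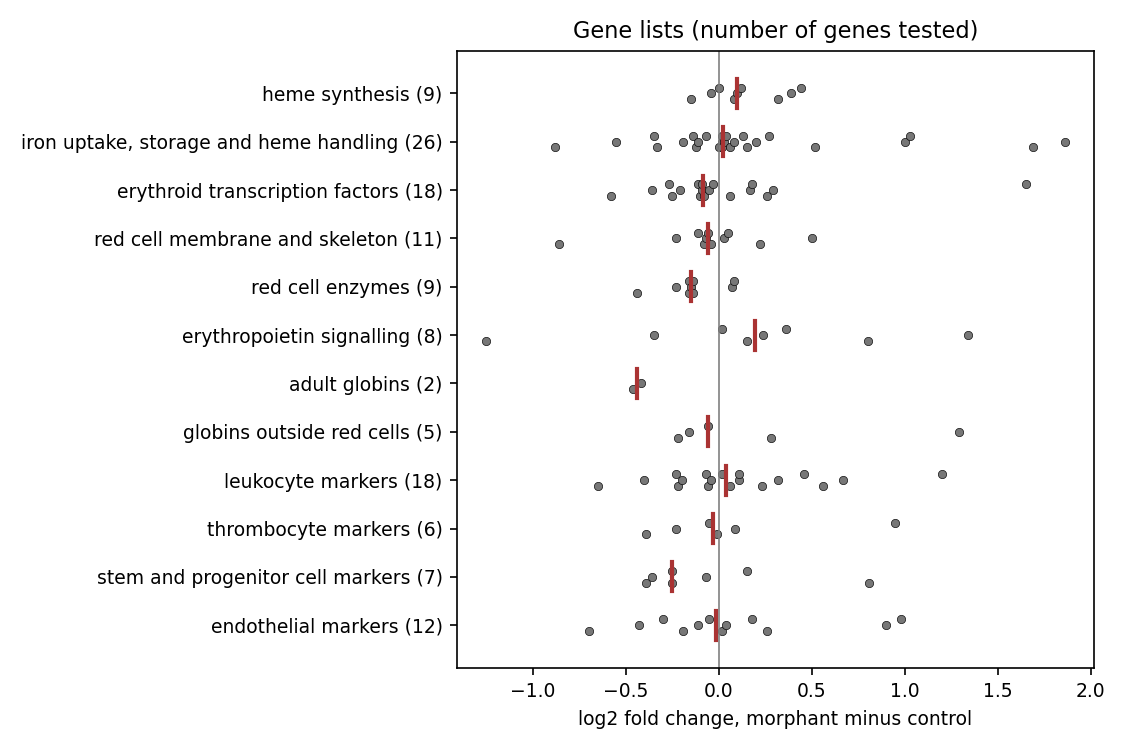
Log2 fold change (morphant minus control) of each tested gene in 12 lists, members left out, with the list median as a red line. Medians lie between -0.44 for the 2 adult globin rows and 0.19 for erythropoietin signalling, on both sides of 0.

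Markers of other blood and vessel cells were read beside the globins. In none of these lists was a gene called by limma (18 leukocyte, 6 thrombocyte, 7 stem and progenitor and 12 endothelial genes tested), and at an unadjusted p of 0.05 they held 3, 0, 1 and 2 genes in that order, beside 8.99% higher and 6.93% lower over all genes tested. The summed normalised read count of the leukocyte markers without cpa5, whose ID is paired with the pancreatic enzyme gene CPA1, was 1542, 1548 and 1458 in control pools and 1867, 1392 and 1644 in morphant pools. Without cpa5, morphant 1, the morphant with the most globin, had the highest leukocyte sum. With cpa5, which the list held as drawn up, morphant 1 had the lowest sum, 2549 beside 2866 to 3990 in control pools. The place of morphant 1 thus rests on leaving out cpa5, and nothing is read from it. The leukocyte genes with the lowest p did not share a direction. The actin regulator gene coro1a had 159, 164 and 152 in control pools and 126, 114 and 119 in morphant pools (log2 fold change -0.40 ± 0.12, SE; limma adjusted p = 0.216). The neutrophil peroxidase gene mpx had 229, 231 and 272 in control pools and 411, 267 and 340 in morphant pools (0.46 ± 0.16, SE; limma adjusted p = 0.26). The granulocyte growth factor receptor gene csf3r was low, at 3, 11 and 17 in control pools and 23, 19 and 21 in morphant pools (limma adjusted p = 0.313), and its log2 fold change of 1.2 was 0.58 without control 1. Endothelial markers summed to between 2224 and 2412 in control pools and between 2340 and 2406 in morphant pools. No defining marker of these lists was at 0 in all libraries, and their part in the globin values was not tested.

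The genes whose pattern over the 6 libraries was most like the mean globin profile were sought among 15816 genes with a symbol and a mean of at least 50. With all 8 globin rows, the highest Pearson correlations belonged to h2afx (r = 0.993), hmgb3a (0.990) and tusc2a (0.989). The globin rows themselves, which are parts of this profile, correlated with it at 0.289 to 0.732. With hbbe3 left out, a choice made after the values were seen, the highest were atp1b4 (r = 0.997), sept4a (0.995), fkbp9, fabp7a, lmo3 and tmem115 (0.991 each). The glial fatty acid binding protein gene fabp7a, for example, had 4867, 4951 and 4417 in control pools and 4658, 3806 and 3944 in morphant pools. Against the profile without hbbe3, hbbe1.1 (ENSDARG00000089963) stood at 0.993 and hbz at 0.954. Both are parts of that profile, which raises their correlation with it. Among genes that are not part of it, alas2 stood at 0.918, cahz at 0.870, si:dkey-25o16.2 at 0.434 and slc4a1a at 0.237. Against the profile of all 8 rows slc4a1a stood at 0.909, alas2 at 0.515, cahz at 0.434 and si:dkey-25o16.2 at -0.403, so the likeness of these genes depends on whether hbbe3 is counted. These correlations rest on 6 libraries that share group and depth differences and are given as a description.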

How the data were processed

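Total RNA of 6 pools of whole embryos was sequenced. The deposited values are a score: read counts per gene that the authors divided by a size factor of the library and then rounded. This unit was inferred from low whole numbers that are skipped or used more often at regular steps, and from a footer row in each file that names size factors without giving them. The submitters' processing notes name the build Zv9. No source used here gives the aligner, the counter or the use of strand. The worth of 1 read was estimated by fitting these steps (0.708 to 1.558 over libraries), and depths follow from it; rounding prevents recovery of exact reads.

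After a filter (a value of 1 or more in 3 or more libraries, 26082 genes), groups were compared as log2(value + 1) in limma 3.58.1 (R 4.3.3). The model held group alone, with a mean-variance trend, two-sided p and Benjamini-Hochberg adjustment over all genes. Fold changes on this scale are understated for low genes. The procedure was tested on simulated data. Current symbols were matched by gene ID (21028 of 31452). Members, lists and tests were chosen with earlier results of these data known. The rule for named genes took all members, slc2a12, called genes of each list (none) or else its 4 lowest p-values, the genes most like the globin profile and chromosomal neighbours. Not all of these are printed, and genes outside the rule are marked as named after their values were seen. Alternatives covered scaling, filters, pseudocounts, the variance model, library weights, a replicate block and each library left out.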

Additional observations from a re-analysis of the deposited data

How the results depend on the processing

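Of 17 alternatives, none moved the members' median log2 fold change of -0.34 by more than the SD of 0.23 between libraries of a group. For several of them this was given in advance. The trend and robust settings, the filters, which kept all 11 rows, and the replicate block cannot change this median. With the others it lay between -0.44 (without morphant 1) and -0.22 (equal library totals). Members called were 1 with a robust empirical Bayes step (hbbe3), 4 with library weights and 0 in the other 15. Over all genes, 6 were higher and 0 lower. Equal library totals, with or without the globin genes counted, gave 10 higher and 1 lower and moved the median of all genes by 0.11 on the log2 scale. With equal totals every member's log2 fold change was higher, at -0.11 and -0.09 for the hbae1 rows, -0.21 for alas2 and 0.38 for slc4a1a. No filter gave 1 lower gene, and a minimum of 10 gave 11 higher and 3 lower. A pseudocount of 0.1 gave 2 higher and one of 10 gave 12 higher and 1 lower. No trend gave 24 and 6, the robust step 32 and 19, and library weights 217 and 112. With 1 library left out there were 1 to 3 higher and 0 to 1 lower genes. The causes were not tested. With the replicate number as a block there were 2 higher and 0 lower genes. Same-numbered libraries deviated together at r = 0.104, -0.059 and 0.118. The values for differently numbered libraries are not given here, so these alone do not settle whether the numbers pair the libraries. Signs turned for hbaa1 (-0.42) at 0.04 with library weights and 0.37 without control 1 (range with 1 library left out -1.07 to 0.37), for ba1 (-0.46) at 0.12 and 0.29 (-0.90 to 0.29) and for gp1bb (0.09) at -0.13 and -0.26 (-0.26 to 0.33). The values of tfa, stat5.1, the endothelial gene tek (-0.75) and slc2a12 (-0.61) were called with library weights (limma adjusted p = 0.0287, 0.0287, 0.0488 and 0.0467). Depth limits low rows such as hbbe3, with about 9 reads over the 3 controls. The log2 fold change of hbbe3 moved from 3.87 to 2.37 with a pseudocount of 10.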

Other observations

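Genes that flank the globin clusters in the current gene table were looked up for their values. Next to hbae3 on chromosome 3 stands kank2, which encodes an adaptor protein of the cell cortex. Its normalised read counts were 11, 10 and 22 in control pools and 32, 70 and 64 in morphant pools, with a log2 fold change of 1.88 ± 0.40 (SE; limma adjusted p = 0.158). On the far side of the same cluster, nprl3 had 249, 214 and 190 in control pools and 227, 195 and 217 in morphant pools, which overlapped (limma adjusted p = 0.946). Beyond hbae5 on chromosome 12 stand the water channel genes aqp8a.2 and aqp8a.1. For aqp8a.2 the values were 369, 281 and 234 in control pools and 231, 254 and 303 in morphant pools, and for aqp8a.1 they were 408, 297 and 270 and then 183, 221 and 233 (limma adjusted p = 0.713 and 0.206). The morphants lay below the controls for aqp8a.1, and control 1 was the highest library for both genes, as it was for hbz and hbbe2. Of the further genes looked up, lcmt1, foxj1b and the mgrn1a rows overlapped between the groups. For mpg, at 42, 34 and 36 in control pools and 33, 30 and 31 in morphant pools, the morphants lay lower (limma adjusted p = 0.602). Over all genes tested the groups did not overlap for 11.6% higher and 10.2% lower.

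Globins used outside red cells had a median log2 fold change of -0.06 over 5 genes, with 0 called by limma at an adjusted p of 0.05 and 0 at an unadjusted p of 0.05. Myoglobin, mb, the oxygen store of muscle, had normalised read counts of 438, 426 and 389 in control pools and 694, 262 and 349 in morphant pools, with morphant 1 the highest library as for slc4a1a. Neuroglobin, ngb, had 360, 256 and 350 in control pools and 237, 298 and 286 in morphant pools, and cytoglobin cygb1 had 55, 62 and 66 and then 77, 74 and 72. The gene mb was named after its values were seen.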
